A study of Homo sapiens with 6 samples.

Results

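Death receptors and their adaptors are 10 genes of the extrinsic apoptosis pathway, taken from the count table by gene symbol, among 20020 genes in all. They are the receptors FAS, TNFRSF10A, TNFRSF10B, TNFRSF10C and TNFRSF10D, the ligand TNFSF10, the adaptors FADD and TRADD, the kinase RIPK1 and the inhibitor CFLAR. RNA-seq compared them in HCT116 cells, a human colorectal carcinoma line, between a CAD knockout and a vector control, in a study that asked how CAD shapes interferon signalling after irradiation (IR). CAD, caspase-activated DNase, is the nuclease that cuts chromatin DNA in apoptotic cells and is encoded by DFFB. The groups are CAD-KO+IR (labelled KOIR, genotype CAD knockout) and control+IR (labelled NCIR, genotype control), with 3 libraries each. Both groups were collected 24 h after 8 Gy, and the series holds no libraries of cells that were not irradiated. The knockout line was a stable lentiCRISPRv2 line carrying the guide named CAD-KO2, so the comparison rests on a single guide.

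A death receptor carries a death domain on its cytoplasmic side. When a trimeric ligand such as FAS ligand or TRAIL (TNFSF10) binds, the death domain recruits the adaptor FADD, and FADD recruits caspase-8, which is cut and activated unless CFLAR (also called FLIP) takes its place. TNF receptor 1 recruits TRADD and RIPK1 instead, which can lead to NF-kB signalling or to cell death, and CAD is released from its inhibitor further down the same cascade, when executioner caspases cut ICAD. FAS and the TRAIL receptors are also known target genes of p53, which irradiation activates.

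None of the 9 genes that could be tested was a differentially expressed gene (DEG) in CAD-KO+IR, and their log2 fold changes lay between −0.14 and 0.23. TNFRSF10B, TNFRSF10D and TNFRSF10A were the most abundant of the 10 transcripts per exon length in both groups, while TNFSF10 was at or near 0 in every library. DEGs had to change by 1.5-fold or more, in either direction, and to have an adjusted p (Benjamini-Hochberg, over all 12925 genes tested) under 0.05 by quasi-likelihood in edgeR. Of all genes tested, 0.0309% were DEGs. The groups overlapped for each of the 9 genes, and for 10.2% of all genes tested they did not. No member had an unadjusted p under 0.05, which 2.85% of all genes tested had, and DESeq2 called 0 members, beside 0.364% of all genes. With sample weights in limma-voom, which gave control+IR replicate 3 and CAD-KO+IR replicate 2 the lowest weights, 2 of the 9 genes had an unadjusted p under 0.05, beside 37.1% of all genes, and 0 were DEGs, beside 5.15%. Without control+IR replicate 3 there were 0 members among the DEGs, which were 0.167% of all genes, and without CAD-KO+IR replicate 2 as well 0 again, beside 3.37%. In bulk RNA a change in the share of cells that express a gene and a change in RNA per cell cannot be told apart.

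The libraries held 17467718 to 19574144 counts in CAD-KO+IR and 14032994 to 16311694 in control+IR. Control+IR replicate 3 stood apart from its group (mean Pearson correlation of log2 CPM with the other two libraries 0.888, against 0.940 and 0.942 for them), and so, less far, did CAD-KO+IR replicate 2 (0.972 against 0.981 and 0.984). In these libraries genes rich in G and C were low. The median log2 CPM, centred on each gene's mean, of the 25% of genes highest in GC content minus that of the lowest 25% was −1.39 and −0.68, whereas it lay between 0.30 and 0.68 in the other 4. The same difference by exon length, longest minus shortest 25% of genes, was 0.36 and 0.19 in them, and between −0.21 and −0.07 in the other 4. Control+IR replicate 3 also had 7561 genes with no count, against 4577 to 5232 in the other libraries. Results that rest on control+IR replicate 3 and CAD-KO+IR replicate 2 are therefore also given without them. DFFB, the targeted gene, was counted 185, 192 and 217 times in CAD-KO+IR and 357, 335 and 297 times in control+IR, so that each knockout library lay below each control library. The difference on the log2 scale was −1.02 ± 0.19 (standard error), with an adjusted p = 0.550 in edgeR, and it was not a DEG. Epithelial markers summed to 2835 to 4044 CPM in CAD-KO+IR and 2147 to 4173 CPM in control+IR, and leukocyte markers to 0.0527 to 0.399 CPM and 0 to 0.306 CPM, with CD3E at 0. Fibroblast markers summed to 25.9 to 39.8 CPM and 10.9 to 48.9 CPM, with DCN at 0. Of the 4 fibroblast markers, 2 (DCN among them) had at most 3 counts in each library, so the sum rests on the others. Endothelial markers summed to 0.685 to 1.54 CPM and 2.57 to 6.07 CPM.

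Levels of different genes were compared as TPM, which divides by the exon length of the gene. TNFRSF10B came first, with a median of 176 TPM over the 6 libraries (128 to 187), followed by TNFRSF10D with 119 TPM (108 to 134) and TNFRSF10A with 73.1 TPM (62.0 to 76.9). This order held in all 6 libraries, although the ranges of TNFRSF10B and TNFRSF10D overlapped. RIPK1 (36.2 TPM, 34.4 to 43.8) and FAS (35.3 TPM, 33.3 to 64.0) did not differ beyond their spread, and RIPK1 was the higher of them in 4 libraries. The same was true of TRADD (25.5 TPM, 11.1 to 31.6), TNFRSF10C (21.7 TPM, 13.7 to 31.9) and FADD (16.4 TPM, 9.01 to 22.2), whose ranges overlapped their neighbours'. CFLAR was lowest of the detected genes with 7.36 TPM (6.07 to 8.11), but its annotated exons cover 22529 bases against 1841 to 5158 for the others, so its level per length is uncertain.

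**Figure D1:**
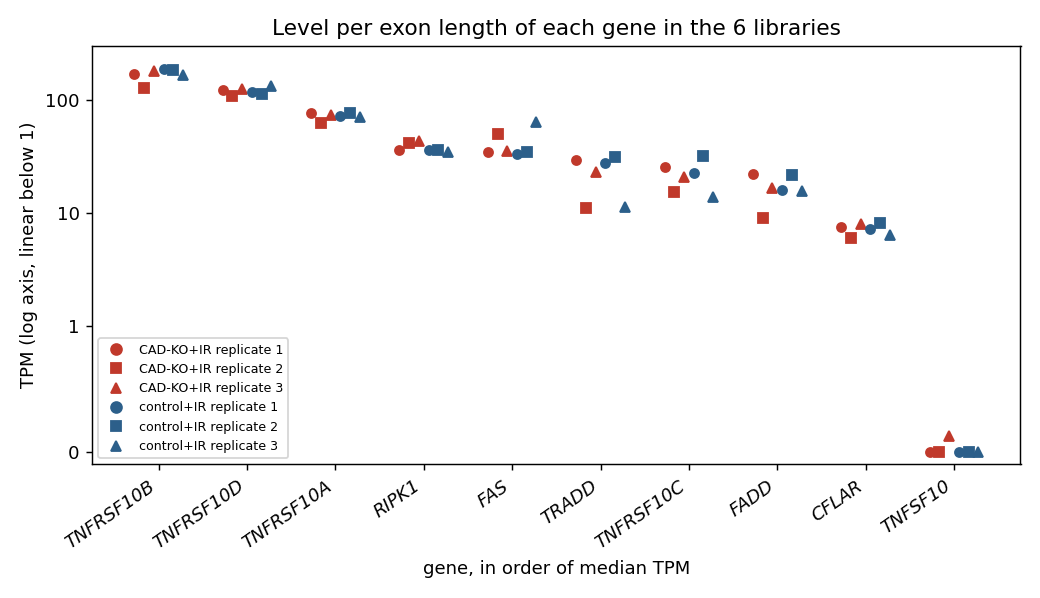
TPM (log axis, linear below 1) of the 10 genes in each of the 6 libraries, with CAD-KO+IR in red and control+IR in blue and a symbol for each replicate number. TNFRSF10B, TNFRSF10D and TNFRSF10A lead in every library, and TNFSF10 lies at 0 in 5 of the 6.

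FAS, the receptor of FAS ligand (ENSG00000026103.25, chromosome 10 of GRCh38, 88990582 to 89015785), was measured at 39.6, 61.7 and 40.4 CPM in CAD-KO+IR replicates 1 to 3 and at 38.7, 40.1 and 71.1 CPM in control+IR replicates 1 to 3. A single library was high in each group, CAD-KO+IR replicate 2 and control+IR replicate 3, while the other 4 lay between 38.7 and 40.4 CPM. The group means of 47.3 ± 12.5 CPM and 49.97 ± 18.3 CPM (SD over 3 libraries) differed by less than this spread, and the log2 fold change was −0.08 (95% interval −0.81 to 0.66, adjusted p = 0.9999, edgeR). The sign turned with single libraries, to 0.26 without control+IR replicate 3 and to −0.32 without CAD-KO+IR replicate 2, and with both left out the log2 fold change was 0.03. Of the 50-base stretches in FAS transcripts, 7.09% are shared with ACTA2, a smooth muscle actin gene on the opposite strand, which had only 2.79 to 4.997 CPM.

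The receptors with a death domain that bind TRAIL are TNFRSF10A (DR4) and TNFRSF10B (DR5), both on chromosome 8, with TNFRSF10C and TNFRSF10D between them. TNFRSF10B (ENSG00000120889.13, 23020133 to 23069179) was measured at 237, 190 and 249 CPM in CAD-KO+IR and at 263, 255 and 223 CPM in control+IR. The groups overlapped, with CAD-KO+IR replicate 2 the lowest of the 6. Its log2 fold change was −0.13 (95% interval −0.52 to 0.26, adjusted p = 0.9999, edgeR), and it stayed below 0 under all 18 alternative fits, from −0.20 to −0.02. TNFRSF10A (ENSG00000104689.10, 23190452 to 23225126) was measured at 61.2, 52.9 and 57.9 CPM in CAD-KO+IR and at 58.6, 61.3 and 54.3 CPM in control+IR. Its log2 fold change was −0.02 (95% interval −0.39 to 0.36, adjusted p = 0.9999, edgeR).

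The decoy receptors TNFRSF10C (DcR1), which is anchored by a lipid and has no death domain, and TNFRSF10D (DcR2), whose death domain is truncated, bind TRAIL without passing on a death signal. TNFRSF10D (ENSG00000173530.6, chromosome 8, 23135588 to 23164030) was measured at 117, 110 and 118 CPM in CAD-KO+IR and at 113, 109 and 124 CPM in control+IR. It was the most even of the 9 genes over the 6 libraries, and its log2 fold change was −0.0033 (95% interval −0.34 to 0.34, adjusted p = 0.9999, edgeR). TNFRSF10C (ENSG00000173535.15, chromosome 8, 23102590 to 23117437) was measured at 13.0, 8.22 and 10.3 CPM in CAD-KO+IR and at 11.6, 16.1 and 6.70 CPM in control+IR. The lowest library of each group was again CAD-KO+IR replicate 2 and control+IR replicate 3. The log2 fold change of TNFRSF10C was −0.13 (95% interval −0.96 to 0.71, adjusted p = 0.9999, edgeR), and ranged from −0.39 without control+IR replicate 3 to 0.20 without control+IR replicate 2. On the TPM scale the receptors with a death domain exceeded the decoys in every library, by a ratio of 1.67, 1.54 and 1.75 in CAD-KO+IR and of 1.86, 1.78 and 1.60 in control+IR, so the ratios of the groups overlapped. The 4 TRAIL receptor genes are paralogs, but no 50-base stretch of their annotated transcripts was shared among them. For TNFRSF10C 35.4% of these stretches also lie in other annotated genes, against 0.831% for TNFRSF10D, 1.35% for TNFRSF10B and 12.4% for TNFRSF10A. Of the 4, the counts of TNFRSF10C are thus the most exposed to how reads shared between genes were handled. Whether such reads raised or lowered its counts was not tested.

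TNFSF10 (TRAIL), the ligand of these receptors (ENSG00000121858.11, chromosome 3, 172505508 to 172523507), had 0, 0 and 2 counts in CAD-KO+IR and 0, 0 and 0 in control+IR. A count of 0 allows up to 0.0665 CPM over the control+IR libraries together, taking 3 counts as the limit. That limit holds for a count of 0 only, so no upper limit is given for the 2 counts of CAD-KO+IR, where 3 counts would be 0.0546 CPM. No fold change is given, since TNFSF10 did not pass the filter on low counts. The other death ligands of the pathway were not detected or nearly so: FASLG and TNF had no count in any library, and TNFSF15 had at most 7.

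RefSeq promoter windows (GRCh38.p14) were at hand for 5 of the 10 genes. The CG dinucleotide reads the same on both strands and is the site of DNA methylation. It occurs 2 times in the 250 bases before the RefSeq start of TNFSF10 and 32 times before that of FADD. These windows (chromosome 3, 172523431 to 172523680, and chromosome 11, 70203046 to 70203295) reach past the outermost annotated gene starts at 172523507 and 70203163. Part of each window therefore lies inside the annotated gene, and the counts are not of upstream sequence alone. The median over 35114 promoters is 11, and 22.9% have 2 or fewer. The windows of FAS hold 11 to 19, those of RIPK1 14 to 29, and those of CFLAR 0 to 22, depending on the start. The undetected ligand and an expressed adaptor are shown side by side, as the 100 bases that end before the outermost annotated start of each gene, with CG in capitals.
TNFSF10, reverse strand, chr3:172523508-172523607: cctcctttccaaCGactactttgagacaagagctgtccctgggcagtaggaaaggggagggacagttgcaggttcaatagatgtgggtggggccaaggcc
FADD, forward strand, chr11:70203063-70203162: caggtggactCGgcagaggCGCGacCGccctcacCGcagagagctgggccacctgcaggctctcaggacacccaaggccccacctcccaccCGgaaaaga
The stretch of TNFSF10 holds 1 CG and that of FADD holds 6. Methylation was not measured in these samples, and the sequence is given only as a description.

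FADD, the adaptor that joins FAS and the TRAIL receptors to caspase-8 (ENSG00000168040.5, chromosome 11, 70203163 to 70207390), was measured at 11.1, 4.798 and 8.26 CPM in CAD-KO+IR and at 8.07, 10.7 and 7.48 CPM in control+IR. CAD-KO+IR held both the highest and the lowest library. The log2 fold change was −0.13 (95% interval −0.95 to 0.70, adjusted p = 0.9999, edgeR), and it ran from −0.42 without CAD-KO+IR replicate 1 to 0.14 without CAD-KO+IR replicate 2. Of the 50-base stretches of FADD, 51.1% lie in an annotated antisense gene as well. Where the counting ignored strand, which the sources used here do not say, reads of these genes cannot be told apart.

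TRADD, the adaptor of TNF receptor 1 (ENSG00000102871.16, chromosome 16, 67154180 to 67160298), varied most. It was measured at 20.3, 8.22 and 15.9 CPM in CAD-KO+IR and at 19.4, 21.9 and 7.55 CPM in control+IR. The highest library of a group exceeded the lowest 2.46-fold in CAD-KO+IR and 2.90-fold in control+IR, where the median over all genes tested was 1.38-fold and 1.76-fold. The log2 fold change of TRADD was −0.14 (95% interval −1.24 to 0.96, adjusted p = 0.9999, edgeR). It ranged from −0.48 without control+IR replicate 3 to 0.15 without CAD-KO+IR replicate 2, and was −0.18 with both left out.

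RIPK1, a kinase that binds TRADD and FADD through its own death domain (ENSG00000137275.16, chromosome 6, 3063991 to 3115187), had the largest difference among the 9 genes. It was measured at 41.4, 50.5 and 49.4 CPM in CAD-KO+IR and at 41.5, 41.3 and 37.9 CPM in control+IR. CAD-KO+IR replicates 2 and 3 lay above every control+IR library, and replicate 1 lay among them. The log2 fold change was 0.23 (95% interval −0.17 to 0.63, adjusted p = 0.9999, edgeR), and it was above 0 under all 18 alternative fits, from 0.14 to 0.33. The smallest adjusted p among these fits was 0.0885, from limma-voom with sample weights, where the fold change was also under 1.5. CFLAR, the inhibitor of caspase-8 activation (ENSG00000003402.21, chromosome 2, 201116104 to 201176687), was measured at 45.4, 39.5 and 48.4 CPM in CAD-KO+IR and at 44.6, 49.4 and 37.7 CPM in control+IR. Its log2 fold change was 0.02 (95% interval −0.42 to 0.46, adjusted p = 0.9999, edgeR). The TPM ratio of CFLAR to FADD was 0.336, 0.673 and 0.479 in CAD-KO+IR and 0.451, 0.375 and 0.412 in control+IR, with CAD-KO+IR libraries both above and below all of the control+IR libraries. This ratio is as uncertain as the level of CFLAR per length. The ratio of counts was 4.11, 8.24 and 5.86 in CAD-KO+IR and 5.52, 4.59 and 5.04 in control+IR.

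The width of the intervals sets how much these comparisons can say. For TNFRSF10A, TNFRSF10B, TNFRSF10D and CFLAR, 4 of the 9 genes, the 95% interval of the log2 fold change lay within 0.585 of 0 in both directions, so that a 1.5-fold difference is outside it. For FAS, TNFRSF10C, FADD, TRADD and RIPK1 a difference of that size lay inside the interval in at least 1 direction. These intervals are not adjusted for the number of genes. Of the 9 genes 7 (77.8%) had a log2 fold change below 0, as did 51.9% of all genes tested, but without CAD-KO+IR replicate 2 it was 2 of 9. The median over the 9 was −0.08, beside −0.01 over all genes tested.

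**Figure D2:**
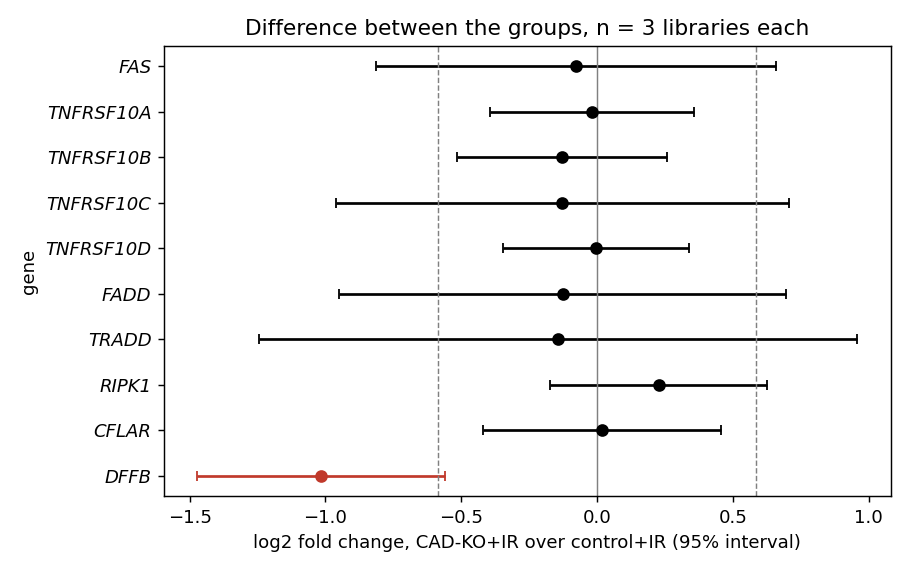
Log2 fold change of CAD-KO+IR over control+IR for the 9 tested genes and for DFFB (red), with 95% intervals from edgeR's fit on 3 libraries a group. Dashed lines mark a fold change of 1.5, and the intervals of all 9 genes include 0.

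The genes with the most uneven libraries were FAS, with the lowest GC content of the 9, and TNFRSF10C, FADD and TRADD, with the highest. FAS (39.1% GC in its longest transcript) was highest in CAD-KO+IR replicate 2 and control+IR replicate 3, by 0.62 and 0.85 on the log2 scale over the other libraries of the group. TRADD (65.0%) was lowest in the same libraries, by −1.12 and −1.43. TNFRSF10C (57.9%) was lower there by −0.48 and −1.01, and FADD (58.6%) by −0.98 and −0.31. Other libraries of these genes deviated as well, CAD-KO+IR replicate 1 by 0.80 for FADD and 0.49 for TNFRSF10C, and control+IR replicate 2 by 0.46 for FADD and 0.86 for TNFRSF10C. TNFRSF10A, TNFRSF10B, TNFRSF10D and RIPK1, with 47.1% to 50.1% GC, deviated by −0.35 to 0.16 in CAD-KO+IR replicate 2 and control+IR replicate 3. CFLAR, second lowest in GC content (44.1%), was low in both (−0.25 and −0.32), opposite to FAS. What part the GC content plays in these differences was not tested beyond the correction that follows.

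**Figure D3:**
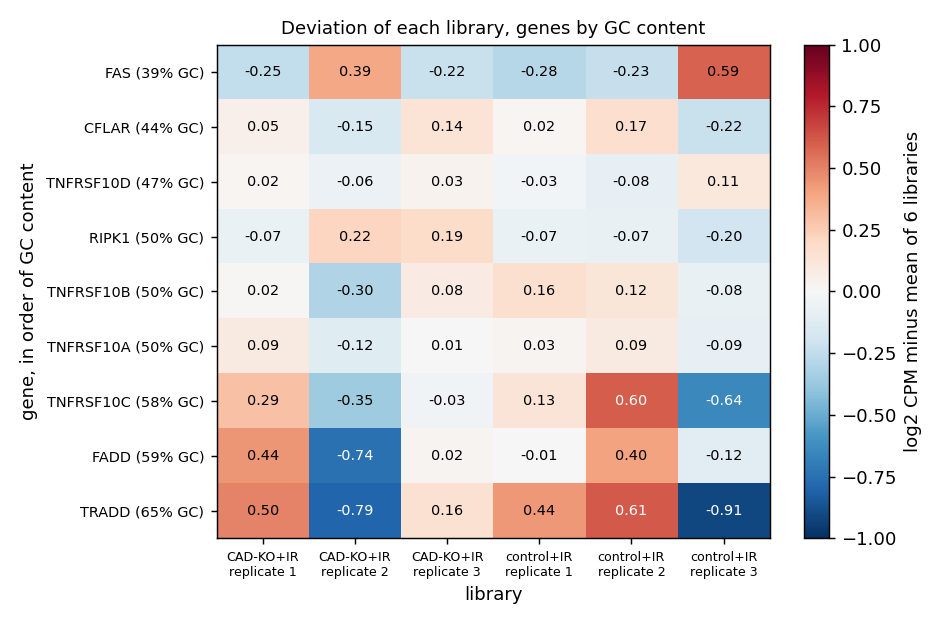
Log2 CPM of each library minus the mean of the 6 libraries (colour and number), with the 9 genes in order of GC content from 39% to 65%. FAS is high and TRADD low in CAD-KO+IR replicate 2 and control+IR replicate 3, while TNFRSF10C and FADD also spread widely and the other 5 genes are more even.

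When the trend of log2 CPM on GC content was taken out of each library, a step chosen after seeing the data, FAS lay at 45.0, 51.0 and 43.2 CPM in CAD-KO+IR and at 45.3, 47.9 and 50.4 CPM in control+IR. The highest control+IR library then exceeded the lowest 1.11-fold, instead of 1.84-fold. TRADD lay at 15.6, 11.7 and 13.5 CPM and at 14.1, 15.5 and 15.6 CPM, a ratio in control+IR of 1.10 instead of 2.90. The median of this ratio over all genes tested also fell with the correction, in control+IR and in CAD-KO+IR. A narrower spread was therefore not particular to FAS and TRADD. The opposite held for FADD in control+IR, where the ratio rose from 1.44 to 1.82, and for CFLAR, where it rose from 1.31 to 1.66. Log2 fold changes after the correction were −0.04 for FAS, −0.13 for TRADD, −0.19 for FADD and 0.21 for RIPK1, and none of the 9 genes was a DEG, while 0.325% of all genes were.

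The rest of the pathway was described with a list of 40 genes, of which 33 were tested and none was a DEG, with none at an unadjusted p under 0.05 in edgeR and none called by DESeq2 or limma-voom. The median log2 fold change of the 33 was 0.08, with 21 above 0 and 12 below. The groups did not overlap for 6 of them (18.2%), all higher in CAD-KO+IR, where 5.23% of all genes tested were higher without overlap. Among them are TNFRSF21, MLKL, SPATA2, PEA15 and DIABLO, named after their values were seen. TNFRSF21 (DR6), a death receptor with no part in TRAIL binding, was measured at 154, 153 and 150 CPM in CAD-KO+IR and at 128, 133 and 131 CPM in control+IR. The libraries of each group lay close together, including those that stood apart for other genes. The difference on the log2 scale was 0.22 ± 0.13 (standard error, 3 libraries a group), with an adjusted p = 0.9999 in edgeR, and stayed between 0.20 and 0.24 under all 18 alternative fits. Its adjusted p was 0.0190 with sample weights in limma-voom and 0.0122 in edgeR without the 2 divergent libraries, at a fold change under 1.5 in each. With sample weights 22.3% of all genes tested had an adjusted p under 0.05 at some fold change. For the fit without the 2 divergent libraries, chosen after seeing the data, that share was not counted. In that fit 3.37% of all genes were DEGs, which also had to pass the fold change.

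MLKL, which executes necroptosis, was measured at 18.3, 16.2 and 17.99 CPM in CAD-KO+IR and at 14.8, 12.9 and 9.45 CPM in control+IR, where replicate 3 was again the lowest. For MLKL the log2 fold change was 0.49 (adjusted p = 0.9999, edgeR), or 0.39 without both divergent libraries. Its adjusted p was 0.0178 with sample weights in limma-voom and 0.0357 in edgeR without the 2 divergent libraries, and that of PEA15 was 0.0461 and 0.0618, at a fold change under 1.5 in each. With sample weights 22.3% of all genes had an adjusted p under 0.05, and for the other fit the share was not counted. RIPK3, the kinase that activates MLKL, had no count in any library. For SPATA2, PEA15 and DIABLO the log2 fold changes of 0.64, 0.35 and 0.91 leaned on control+IR replicate 3, the lowest library for each, where DIABLO had 0 counts. With both divergent libraries left out they were 0.24, 0.20 and 0.34. The initiator caspases that FADD recruits overlapped between the groups, CASP8 with 36.9, 47.2 and 37.9 CPM in CAD-KO+IR and 38.1, 32.7 and 54.3 CPM in control+IR. CASP10 was measured at 6.77, 7.91 and 5.69 CPM in CAD-KO+IR and at 6.48, 7.53 and 1.97 CPM in control+IR. TNFRSF1A (TNF receptor 1) was measured at 75.5, 55.7 and 71.2 CPM in CAD-KO+IR and at 73.5, 70.2 and 46.6 CPM in control+IR, with a log2 fold change of 0.09 (adjusted p = 0.9999, edgeR).

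Among the genes whose pattern over the 6 libraries was most like that of FAS, by the root mean square difference of log2 CPM centred on each gene's mean, were MOCS2 (0.0252), FBXO28 (0.0331), UBXN4 (0.0396) and ATP5PF (0.0429), where the median over all genes was 0.460. MOCS2, FBXO28 and UBXN4 had a GC content of 36.7% to 40.6%, and ATP5PF had 53.1%. For TNFRSF10B they included IQGAP3 (0.0316), ZCCHC3 (0.0318), EDEM2 (0.0381) and NPHP4 (0.0390), beside a median of 0.379. IQGAP3, ZCCHC3, EDEM2 and NPHP4 had a GC content of 54.6% to 59.5%, above the 50% of TNFRSF10B. The genes most like FAS and TNFRSF10B were picked for their small differences, so their place below the medians follows from the choice. Among the members themselves, TNFRSF10A was nearest to CFLAR (0.0867) and to TNFRSF10B (0.102), and FAS and TRADD were farthest apart (0.964).

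Across the alternatives the signs of most members were not stable. RIPK1 stayed above 0 and TNFRSF10B below 0 under all 18, whereas each of the other 7 turned its sign under 2 to 6 of them. No member passed the thresholds of a DEG under any of the 18.

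**Figure D4:**
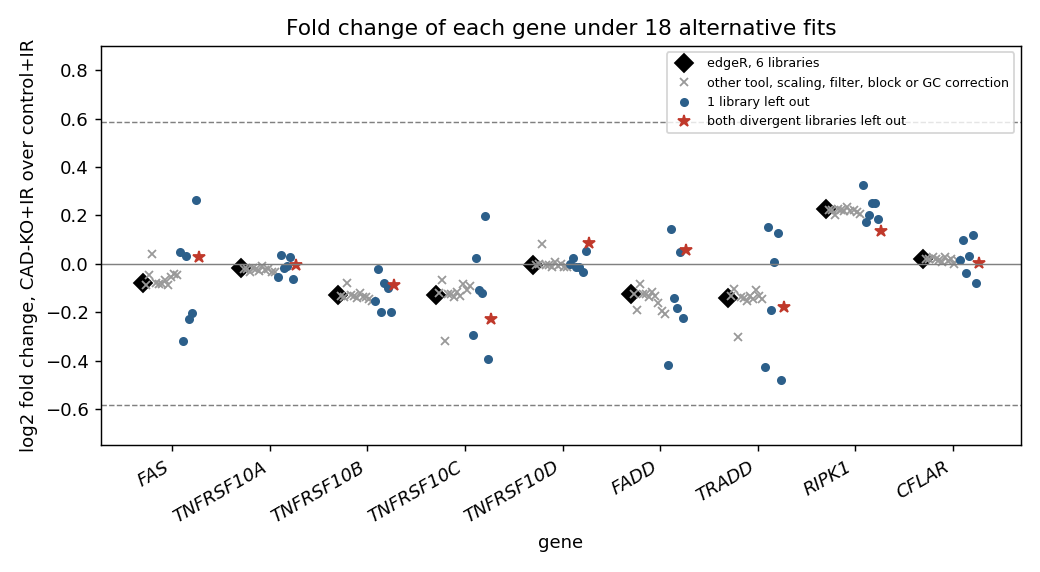
Log2 fold change of each of the 9 genes in edgeR's fit on 6 libraries (black) and under 18 alternatives, of which 6 leave out 1 library (blue) and 1 leaves out both divergent libraries (red). Dashed lines mark a fold change of 1.5, which no value reaches.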

How the data were processed

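RNA-seq of 6 HCT116 libraries, 3 each of CAD-KO+IR and control+IR, was used. The deposited values are raw counts, which the authors obtained with featureCounts (version 1.5.0-p3) from reads filtered by fastp. The aligner and strand setting are not given in the sources used here. The submitters' processing notes name the build mm10, although the gene identifiers are human, and the labels list the molecule as genomic DNA although the protocol describes RNA. Columns were matched to samples by title.

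Genes were kept by filterByExpr (minimum count 10, minimum total 15), scaled by TMM and tested with the quasi-likelihood test of edgeR 4.0.16 (newer method, legacy set to FALSE) in R 4.3.3, with Benjamini-Hochberg adjustment. Alternatives were DESeq2 1.42.0, limma 3.58.1 (voom, with and without sample weights), the legacy fit, other scalings and filters, a replicate block and each library left out, and, chosen after seeing the data, GC correction and both divergent libraries left out. The log2 CPM used a prior count of 2, and the GC trend a lowess span of 0.3. Exon lengths, positions and GC content came from GENCODE release 29 on GRCh38, which 19823 of the 20020 identifiers matched, so only gene identities link counts to positions. The scripts were tested on simulated data.

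The members, the pathway list and the p53 list were chosen with earlier results of these data known. Genes named by rule are all members, DFFB, FASLG, TNF, TNFRSF1A, CASP8, CASP10, pathway genes with an unadjusted p under 0.05 (none) and the 5 genes most like FAS and TNFRSF10B. Other genes of the pathway and p53 lists were named after their values were seen. Some genes that these rules or counts include are not reported here. No label says that replicates were separate cultures, so p-values measure only the spread between these samples, and limits from counts cover counting error only.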

Additional observations from a re-analysis of the deposited data

How the results depend on the processing

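No alternative made a member or a gene of the pathway list a DEG. Over all genes there were 4 DEGs, and as many with the legacy quasi-likelihood fit, RLE or upper quartile scaling, no filter on low counts, a minimum of 1 CPM in 3 libraries, or GC correction joined to the replicate block. There were 47 with DESeq2, 0 with limma-voom, 666 with sample weights, 42 with GC correction, 440 with CAD-KO+IR replicate 2 and control+IR replicate 3 both left out, and 282 when the unadjusted p replaced the adjusted one. GC correction and leaving out both libraries were chosen after seeing the data. With 1 library left out there were 0 to 22 (0 without any one CAD-KO+IR library, 1 without control+IR replicate 1 or 2, 22 without control+IR replicate 3). Where the count was 0, genes past the fold change at an unadjusted p under 0.05 numbered 89 (higher) and 120 (lower) with limma-voom, and 82 and 99, 67 and 123, and 65 and 90 without CAD-KO+IR replicates 1, 2 and 3. The cause was not tested.

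The replicate block gave 0 DEGs, with 62 genes higher and 82 lower by the same unadjusted rule. Deviations of same-numbered libraries from their group means correlated at 0.468, −0.545 and −0.379. The divergent libraries dominate these deviations and carry different numbers, so the values cannot tell whether the numbers pair the samples. The block changed no call of a member.

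Of the 18 genes on the p53 list, 3 were DEGs with sample weights (GDF15, BBC3 and TP53I3, beside 5.15% of all genes), 1 with GC correction (TP53INP1, beside 0.325%), 2 without both divergent libraries (GDF15 and TP53I3, beside 3.37%) and 1 with unadjusted p (TP53INP1, beside 282 of 12925 genes), against 0. These were all lower in CAD-KO+IR, and neither FAS nor TNFRSF10B was among them. DFFB became a DEG in DESeq2 (−1.02, adjusted p = 0.000458), with sample weights (−0.92) and without both libraries (−0.996), and with 1 library left out it lay between −1.11 and −0.95.

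Of the alternative values of the 9 members, 23 changed sign and 139 kept it. With sample weights the log2 fold change turned for FAS (0.039), TNFRSF10D (0.080), TNFRSF1A (−0.00063), CASP8 (0.090) and CASP10 (−0.21). Without both libraries it turned for FAS (0.028), TNFRSF10D (0.084), FADD (0.057), CASP8 (0.080) and CASP10 (−0.15), and without a filter for TNFRSF10D (0.0081). With 1 library left out the ranges that crossed 0 were −0.32 to 0.26 for FAS, −0.063 to 0.037 for TNFRSF10A, −0.39 to 0.20 for TNFRSF10C, −0.036 to 0.053 for TNFRSF10D, −0.42 to 0.14 for FADD, −0.48 to 0.15 for TRADD, −0.078 to 0.12 for CFLAR, −0.090 to 0.21 for TNFRSF1A, −0.17 to 0.20 for CASP8 and −0.037 to 0.66 for CASP10. What depth contributes to the spread of the members was not tested.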

Other observations

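FAS and TNFRSF10B belong to a list of 18 textbook p53 target genes, all of which were tested. All 18 had a log2 fold change below 0 in edgeR's fit on 6 libraries, with a median of −0.25 beside −0.01 over all genes tested, and none was a DEG (0.0309% of all genes tested were). With single libraries left out, the number below 0 fell to as few as 13, without control+IR replicate 3, where the median was −0.37. With both divergent libraries left out it was 15, with a median of −0.34, and limma-voom with sample weights gave 13. FAS had −0.08, which moved to between −0.32 and 0.26 with single libraries left out, and TNFRSF10B had −0.13, against −0.38 for CDKN1A, the inhibitor of cyclin-dependent kinases, −0.60 for GDF15, a secreted stress cytokine, and −0.11 for MDM2, the ubiquitin ligase of p53. TP53INP1, like CDKN1A, GDF15 and MDM2 named after its values were seen, was the only one of the 18 with an unadjusted p under 0.05. Of all genes tested, 2.85% had such a p in edgeR. The log2 fold change of TP53INP1 was −0.69 (adjusted p = 0.9999, edgeR). Each knockout library lay below each control library for TP53INP1, as for 648 of the 12925 genes tested. TP53INP1 was measured at 87.6, 117 and 95.8 CPM in CAD-KO+IR and at 122, 134 and 231 CPM in control+IR, where the highest value was again that of replicate 3.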
